A study of Mus musculus with 18 samples.

Results

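The somite-bearing anterior axis of mouse embryos at embryonic day 9 was compared between controls and embryos labelled as double knockouts of Meis1 and Meis2. Libraries were chosen by their region label, which gave 9 of the 18 libraries of the series, 5 from control and 4 from double knockout (DKO) embryos. Both genes were to be deleted conditionally by Delta1Cre, a Cre recombinase under Delta1 (Dll1) control, and the labels do not say which alleles or whether Cre were carried by the controls, nor the strain. The labels give a sex and 20 to 24 somites for each library, and poly(A) RNA was sequenced. Control replicates 1 to 5 had 23, 20, 24, 21 and 23 somites, and DKO replicates 1 to 4 had 22, 24, 20 and 23. The anterior piece was the axis rostral to the most recently formed somites, up to the level where somites begin, and it held differentiating somites together with neural tube, vessels and other tissue of the dissected axis.

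Meis1 and Meis2 encode homeodomain transcription factors of the TALE class. They bind DNA as partners of Pbx and Hox proteins, and retinoic acid is a known inducer of both. Somites mature from anterior to posterior, so the anterior axis is where sclerotome (the source of vertebrae and ribs), dermomyotome (the source of dermis and muscle precursors) and myotome (the first skeletal muscle) take shape. The stated purpose of dividing the axis was to separate early patterning from later somite differentiation, and the anterior piece addresses the later phase.

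The 9 anterior libraries held 12650973 to 34666016 expected counts, and 14598 to 16565 genes had at least 10 counts. Levels are given in CPM, the usual depth-scaled read count, here with library sizes adjusted by edgeR's TMM factors, and 3 counts corresponded to 0.0865 to 0.237 CPM. On a scale shared with the posterior libraries, the axial bud genes T, Tbx6, Msgn1 and Cdx4 averaged 4.15, 0.354, 0.0155 and 0.0733 CPM in anterior controls and 95.5, 32.7, 17.9 and 80.8 CPM in posterior controls. Pax1 of the sclerotome, Pax3 and Pax7 of the dermomyotome and Myog of the myotome averaged 54.2, 61.7, 15.3 and 17.6 CPM in anterior controls, while the muscle gene Myod1 was at 0.725 CPM or less in every anterior library. Control replicate 1 is labelled female but had 151 CPM of Y-linked genes and 0.34 CPM of Xist. The other 4 libraries labelled female had at most 0.926 CPM of Y-linked genes and at least 508 CPM of Xist.

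Few genes separated the genotypes at an adjusted threshold, and most of the transcriptome lay close to no difference. Of 15238 genes tested, 6 passed an adjusted p of 0.05 (0.0394%). Eya2, Cdh15 and Hes5 rose in DKO, and 4930481B07Rik, Lyve1 and Daam2 fell. On GRCm38 they lie at chr2:165595032-165771727 (Eya2, plus strand), chr8:122847966-122867397 (Cdh15, plus), chr4:154960923-154962371 (Hes5, plus), chr3:95015625-95020138 (4930481B07Rik, plus), chr7:110850607-110863239 (Lyve1, minus) and chr17:49456022-49564343 (Daam2, minus). The median log2 fold change over all genes was 0.00, but TMM scaling brings it near 0 by design. Of all genes, 94.5% had a log2 fold change smaller than 0.5 in either direction. An adjusted p of at most 0.10 was reached by 94 genes (0.617%), 33 above and 61 below the controls. The last gene called had an adjusted p of 0.0455, and a further 21 genes stood just outside the threshold between 0.0520 and 0.0522, 5 of them above the controls and 16 below, so many genes lay close to the threshold. Without adjustment, 976 genes above the controls (6.41%) and 1007 below them (6.61%) had a p under 0.05. For 363 genes every DKO value lay above every control value (2.38%), and for 410 every DKO value lay below (2.69%).

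**Figure D1:**
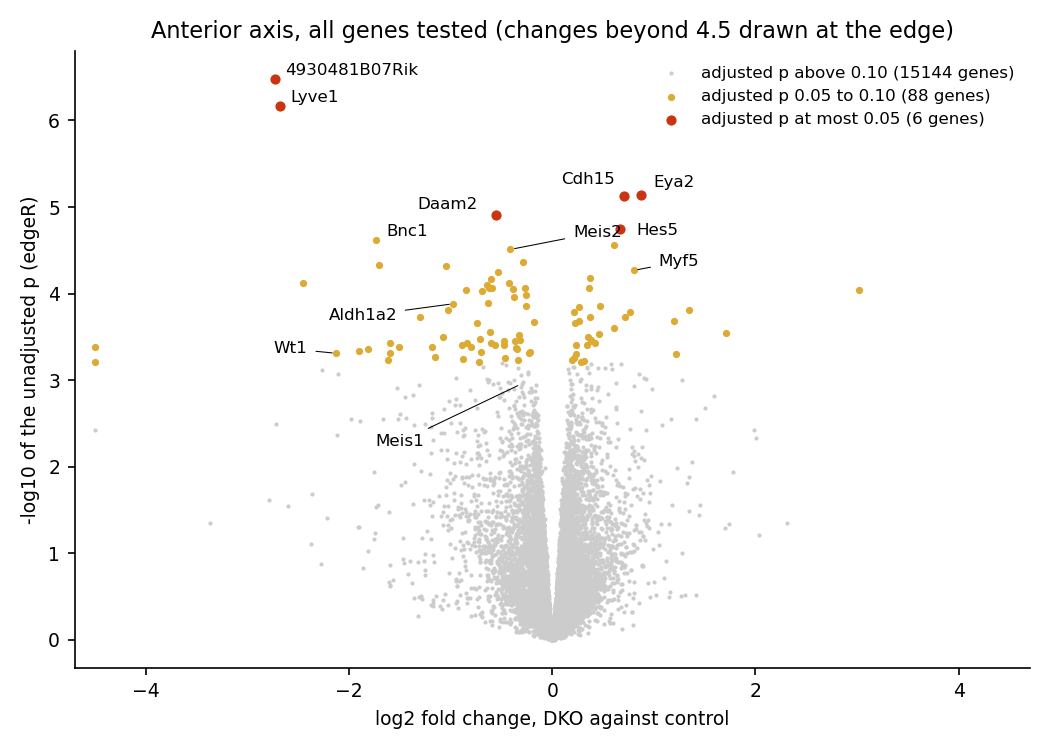
Log2 fold change (DKO against control, x axis) and −log10 of the unadjusted edgeR p (y axis) of all 15238 genes tested in the anterior libraries, with 3 genes beyond 4.5 on the x axis drawn at its edge. The 6 called genes are in red, and the 88 genes with an adjusted p between 0.05 and 0.10, among them Meis2, Bnc1, Myf5, Aldh1a2 and Wt1, are in yellow.

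The count of called genes moved with single libraries, from 1 gene without DKO replicate 1 to 57 without DKO replicate 2. It was 2 without control replicate 2, 3 or 5, and 3 without DKO replicate 3. With DESeq2 in place of edgeR it was 296, 117 above and 179 below the controls.

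Sequences before the RefSeq start of 4 of the called genes are shown because Meis proteins recognise the core TGACAG and because Hes5 is a textbook target of Rbpj, the DNA-binding factor of the Notch pathway, whose site reads GTGGGAA. They come from the RefSeq promoter table of GRCm38.p6, which held 37 of the genes named here but no entry for Eya2 or Lyve1. Searched on both strands (CTGTCA and TTCCCAC are the reverse complements), the 250 bases before the start held TGACAG in 15.9% of all 32851 promoter entries and in 8 of the 37 named genes (21.6%). GTGGGAA, added after the values were seen, was in 5.42% of all entries and in 2 of the 37 (5.41%), Hes5 and Npr1. Capitals mark a match, and a match says only that the letters are there. The stretch of 4930481B07Rik is chr3:95015449-95015528 (plus strand), of Hes5 chr4:154960673-154960922 (plus strand), of Cdh15 chr8:122848132-122848161 (plus strand) and of Daam2 chr17:49564338-49564587 (minus strand). The RefSeq start of Cdh15 lies downstream of the gene start given above, so its stretch falls inside the gene as annotated there.
4930481B07Rik: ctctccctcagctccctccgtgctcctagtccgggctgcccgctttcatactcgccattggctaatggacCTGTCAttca
Hes5: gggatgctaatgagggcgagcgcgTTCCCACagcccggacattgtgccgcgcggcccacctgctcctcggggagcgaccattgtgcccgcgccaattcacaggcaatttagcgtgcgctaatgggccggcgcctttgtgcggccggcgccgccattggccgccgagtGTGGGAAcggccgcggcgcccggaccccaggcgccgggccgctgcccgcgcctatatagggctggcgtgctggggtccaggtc
Cdh15: tgatcacatatgCTGTCActcagatcgccc
Daam2: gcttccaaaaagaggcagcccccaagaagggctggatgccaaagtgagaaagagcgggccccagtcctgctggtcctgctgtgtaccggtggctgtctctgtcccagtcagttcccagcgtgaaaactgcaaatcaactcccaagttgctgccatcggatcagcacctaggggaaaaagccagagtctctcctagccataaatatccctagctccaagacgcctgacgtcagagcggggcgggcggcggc

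In these windows, 4930481B07Rik held the core TGACAG (read as CTGTCA) 10 bases before the RefSeq start and Cdh15 held it 230 and 129 bases before, the match printed being the first of the pair. Hes5 held the Rbpj letters in both orientations, 83 and 226 bases before the start. Daam2 held neither.

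The targeted genes were read first. Meis1 was at 122, 114, 136, 128 and 131 CPM in control replicates 1 to 5 and at 90.4, 111, 98.8 and 108 CPM in DKO replicates 1 to 4. All 4 DKO values lay below all 5 controls, and the log2 fold change was −0.30 (SE 0.0692, adjusted p = 0.123). Meis2 was at 197, 186, 192, 178 and 204 CPM in controls and at 131, 158, 140 and 147 CPM in DKO, again without overlap (−0.41, SE 0.0608, adjusted p = 0.0522). Neither gene passed the threshold in edgeR, and for both the lowest library was DKO 1 and the highest DKO library was DKO 2. The call depended on the fit: Meis1 passed in 3 of 19 alternatives and Meis2 in 8 of 19, with adjusted p-values of 0.00747 and 1.31e-07 in DESeq2. The counts cover whole genes, so transcripts of recombined alleles and transcripts of cells without Cre activity cannot be told apart. In this bulk tissue, fewer cells of a type and less RNA per cell cannot be told apart either, here and in all results that follow.

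**Figure D2:**
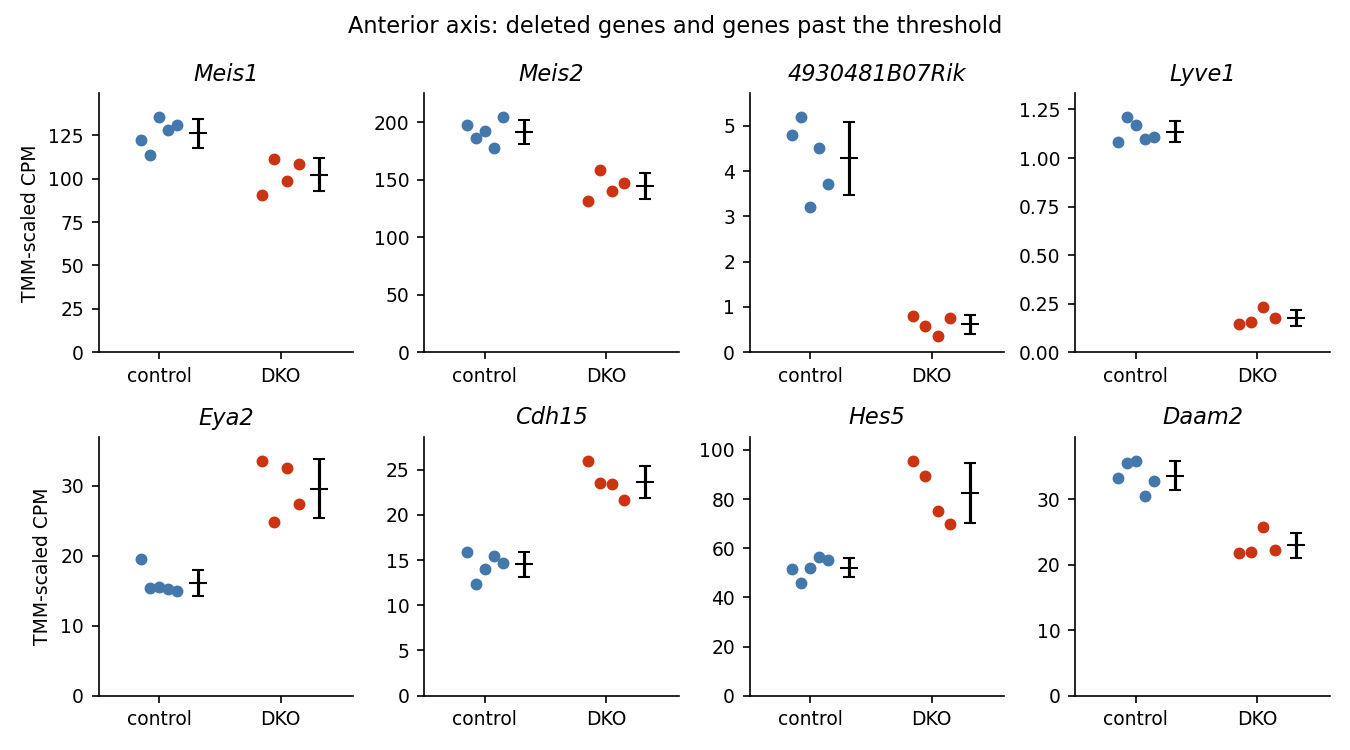
Level in TMM-scaled CPM (y axis, from 0) of the deleted genes Meis1 and Meis2 and of the 6 called genes in the 5 control (blue) and 4 DKO (red) anterior libraries, with the mean and SD beside each group. No DKO value overlaps a control value in any of the 8 panels, and the remaining Meis1 and Meis2 counts are a large part of the control level.

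The other TALE genes, Meis3 and the Pbx, Pknox and Tgif genes, formed a list of 9, all of them tested. Of these 0 were called, and 4 lay above and 5 below the controls. Their median log2 fold change was −0.01 (−0.042 to 0.015 when 1 library was left out). Meis3, the third Meis gene and not deleted here, averaged 52.7 ± 4.02 CPM (SD, n = 5) and 57.2 ± 9.76 CPM (n = 4). Its groups overlapped (0.12, adjusted p = 0.672).

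The transcript 4930481B07Rik, a non-coding RNA, had the smallest p of all genes. It was at 4.79, 5.2, 3.2, 4.5 and 3.72 CPM in controls and at 0.806, 0.569, 0.348 and 0.765 CPM in DKO. The highest DKO library stood well under the lowest control, and the log2 fold change was −2.73 (SE 0.253, adjusted p = 0.00503). It stayed past the threshold in all 19 alternative fits, with an adjusted p of at most 0.0289. Zfp687, the protein-coding gene that starts 177 bases away on the opposite strand, averaged 83.7 ± 5.02 and 80.4 ± 5.73 CPM (−0.06, adjusted p = 0.719).

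Lyve1, a hyaluronan receptor of lymphatic and some embryonic endothelium and of macrophages, fell as steeply from a much lower count. It was at 1.08, 1.21, 1.17, 1.1 and 1.11 CPM in controls and at 0.144, 0.155, 0.232 and 0.174 CPM in DKO (−2.68, SE 0.267, adjusted p = 0.00524), with a mean of 13.1 counts and 3 to 31 counts per library. The groups lay far apart, but the DKO values rest on few counts. DKO replicate 2, at 0.155 CPM, stood at the floor of 3 counts. Without DKO replicate 1 the adjusted p was 0.0649. The SE was larger in other fits: 0.369 without a filter on low counts, 0.476 with all 18 libraries and 0.48 in DESeq2.

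The endothelial list, to which Lyve1 belongs, had 21 members tested, of which 1 (Lyve1) was called, 7 lay above and 14 below the controls, with a median of −0.09 (−0.18 without DKO replicate 4, −0.02 without DKO replicate 2). Its summed level was 677 to 752 CPM in controls and 579 to 731 CPM in DKO. Pecam1, a junction protein of all endothelium, averaged 26.9 ± 1.37 and 23.7 ± 1.63 CPM (−0.18, adjusted p = 0.302), and Mrc1, a mannose receptor, averaged 0.854 ± 0.165 and 1.35 ± 0.31 CPM (0.63, adjusted p = 0.299). Of 10 macrophage markers only 4 had enough counts to be tested, and the sum over the whole list was 6.4 to 9.87 CPM in controls and 6.85 to 9.63 CPM in DKO. The part of endothelial or macrophage content in the Lyve1 difference was not tested.

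Eya2, Cdh15 and Myf5 belong to the onset of skeletal muscle. Eya2, a coactivator and phosphatase that works upstream of the myogenic factors, was at 19.5, 15.4, 15.5, 15.2 and 15 CPM in controls and at 33.6, 24.8, 32.5 and 27.4 CPM in DKO. The lowest DKO library lay above the highest control, and Eya2 rose by 0.88 on the log2 scale (SE 0.111, adjusted p = 0.0285). The call was lost in 6 of the 9 fits that left out 1 library, with adjusted p-values of 0.0514 to 0.144 (DKO replicates 1 and 3, control replicates 2 to 5), and was 0.0098 without control replicate 1, the highest control.

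Of the 10 genes tested in the list of Eya genes and their network partners, Eya2 was the 1 called, and 4 lay above and 6 below the controls. The median was −0.04 (−0.052 to −0.004 when 1 library was left out).

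Cdh15 (M-cadherin, a cell adhesion molecule of muscle precursors) was at 15.9, 12.4, 14.1, 15.5 and 14.7 CPM in controls and at 26, 23.5, 23.4 and 21.6 CPM in DKO. It rose by 0.71 (SE 0.0899, adjusted p = 0.0285). The call was lost without the same 6 libraries as for Eya2 (adjusted p 0.0514 to 0.144) and in the fit with all 18 libraries (0.223). Its whole length lies within the annotated read-through gene Gm20388 on the same strand, which averaged 99.6 ± 7.35 and 110 ± 11.9 CPM (0.14, adjusted p = 0.475), so the split of reads between the pair is uncertain.

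Myf5, the first myogenic factor switched on in the myotome, was at 10.6, 11.1, 10.2, 9.7 and 9.79 CPM in controls and at 21.3, 14.3, 20.9 and 15.4 CPM in DKO. DKO 1 and DKO 3 were the highest, and no value overlapped (0.80, SE 0.127, adjusted p = 0.0522). The later factor Myog averaged 17.7 ± 3.05 and 19.8 ± 5.39 CPM (0.16, adjusted p = 0.756), and Myf6 averaged 2.7 ± 0.561 and 3 ± 0.973 CPM (0.16, adjusted p = 0.82). When 1 library was left out, these fold changes ranged from 0.0013 to 0.298 for Myog and from −0.029 to 0.303 for Myf6.

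Of the 12 myogenic genes tested, 1 (Cdh15) was called, 11 lay above and 1 below the controls, and the median was 0.25 (0.14 without control replicate 2, 0.39 without DKO replicate 3). An unadjusted p below 0.05 was reached by 4, all above the controls, against 6.41% of all genes. The summed level of the list was 451 to 542 CPM in controls and 558 to 683 CPM in DKO. Cdkn1c, a cell cycle inhibitor that is not specific to muscle, made up a large part of it (196 to 271 and 260 to 383 CPM, adjusted p = 0.143). Without Cdkn1c, left out after the values were seen, the sum was 256 to 288 CPM in controls and 298 to 310 CPM in DKO. The contractile genes were less uniform: of 17 tested, 0 were called, 12 lay above and 5 below, and the median of 0.17 became −0.19 without DKO replicate 2. Chrng, the fetal subunit of the muscle acetylcholine receptor, was at 3.2, 1.64, 3.36, 2.37 and 2.41 CPM in controls and at 5.59, 4.5, 4.06 and 5.21 CPM in DKO, without overlap (0.92, SE 0.207, adjusted p = 0.12). The atrial light chain gene Myl7 averaged 1.8 ± 0.334 and 1.09 ± 0.389 CPM (−0.75, adjusted p = 0.309).

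Hes5, a repressor that Notch signalling switches on in neural progenitors, was at 51.6, 46, 51.8, 56.3 and 55 CPM in controls and at 95.7, 89.5, 75.2 and 69.7 CPM in DKO. All 4 DKO libraries lay above the controls, and Hes5 rose by 0.66 (SE 0.0928, adjusted p = 0.0455). The call was lost in 7 of the 9 fits that left out 1 library (adjusted p 0.0514 to 0.162), those without DKO replicate 1 or 3 or any 1 control. It is overlapped over 756 bases by Gm20421 on the opposite strand, which averaged 2.3 ± 0.75 and 3.41 ± 0.813 CPM (0.59, adjusted p = 0.376), and whether counting used the strand is not given in the sources used here.

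Dll1, the Notch ligand whose control elements drive the Cre in this line, was at 65.6, 59.6, 64.6, 68.9 and 63.7 CPM in controls and at 100, 93.1, 78.2 and 74 CPM in DKO. The DKO libraries had the same order as for Hes5 and did not overlap the controls (0.42, SE 0.0841, adjusted p = 0.0881). The non-coding A930024N18Rik, named after its values were seen, overlaps Dll1 on the opposite strand over 1873 bases and was at 0.261 to 0.514 CPM in controls and at 1.04, 0.932, 0.29 and 0.452 CPM in DKO, too few counts to be tested.

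Of the 23 Notch pathway genes tested, 1 (Hes5) was called, 18 lay above and 5 below the controls, and the median was 0.16 (0.09 without DKO replicate 2). An unadjusted p below 0.05 was reached by 5 above and 1 below, against 6.41% and 6.61% of all genes. The receptor Notch1 averaged 149 ± 10.1 and 170 ± 13.9 CPM (0.19, adjusted p = 0.261), and Lfng, which modifies Notch receptors, averaged 55.6 ± 9.5 and 66.1 ± 5.02 CPM (0.25, adjusted p = 0.358). Hes1, a Notch target used in many tissues, was at the same level in both groups (29.7 ± 1.93 and 29.8 ± 1.37 CPM, 0.00, SE 0.0642). Hes7, the oscillating Notch target of the presomitic mesoderm, was at 0.469 CPM or less in all anterior libraries.

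Genes of neural tube progenitors lay above the controls without exception. All 21 were tested and all 21 lay above the controls, 12 with an unadjusted p below 0.05, against 6.41% of all genes. The median was 0.26, and 0 were called. The summed level of the list was 1407 to 1669 CPM in controls and 1670 to 1884 CPM in DKO, so that the groups touched without overlapping.

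Olig2, which marks motor neuron progenitors, was at 31.4, 37.1, 32.4, 34.3 and 36.3 CPM in controls and at 46.2, 45.5, 44.9 and 41.6 CPM in DKO (0.38, SE 0.0607, adjusted p = 0.0522). Sox3, a factor of dividing neural progenitors, was at 79.8, 70.9, 61.8, 74.3 and 70.8 CPM in controls and at 97.2, 88.1, 84.4 and 92.4 CPM in DKO (0.34, SE 0.0678, adjusted p = 0.0881). Nkx6-1 of the ventral neural tube was at 47.4, 44.9, 42.1, 52.8 and 48.9 CPM in controls and at 70.7, 54.1, 58.7 and 62.8 CPM in DKO (0.38, SE 0.0821, adjusted p = 0.102). None of these 3 genes overlapped between groups, and none passed the threshold. The order of the DKO libraries was that of Hes5 for Olig2 but not for Sox3 or Nkx6-1. The general progenitor genes Sox2 and Pax6 averaged 156 ± 18.9 and 89.2 ± 8.98 CPM in controls and 180 ± 3.23 and 104 ± 9.14 CPM in DKO (0.21 and 0.22, adjusted p = 0.289 and 0.291), and both overlapped.

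Hes5 and these progenitor genes lay above the controls together, and the part of neural tube content in its difference was not tested. The genes of neurons and their precursors gave a wider spread. Of 28 tested, 0 were called, 20 lay above and 8 below the controls, and the median of 0.20 became −0.10 without DKO replicate 2. Neurog2, which starts neuronal differentiation, was at 37.3, 35.8, 37.9, 35 and 36.2 CPM in controls and at 58.6, 54, 46.4 and 39.6 CPM in DKO, the order of the DKO libraries being that of Hes5 (0.45, SE 0.0968, adjusted p = 0.103). Tubb3, a tubulin of differentiated neurons, ranged from 56.9 to 112 CPM in controls and from 68.8 to 175 CPM in DKO (0.29, adjusted p = 0.668).

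The neural crest list had 13 genes tested, 0 called, 11 above and 2 below the controls, with a median of 0.20. An unadjusted p below 0.05 was reached by 6 above and 2 below, against 6.41% and 6.61% of all genes. Erbb3, a neuregulin receptor of migrating crest and glia, was at 27.3, 23.4, 26.5, 24.3 and 25.3 CPM in controls and at 34.8, 29.9, 35.9 and 31.1 CPM in DKO (0.38, SE 0.0743, adjusted p = 0.0881). Foxd3, an early crest factor, averaged 7.41 ± 0.942 and 11.4 ± 2.31 CPM (0.63, adjusted p = 0.123), without overlap.

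Snai2 went the other way within that list. It encodes a repressor of epithelial adhesion found in migrating crest and in somite mesenchyme, and was at 11.5, 11.8, 12.9, 9.53 and 9.4 CPM in controls and at 5.36, 8.7, 6.21 and 6.67 CPM in DKO (−0.72, SE 0.152, adjusted p = 0.0995). Its groups did not overlap.

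**Figure D3:**
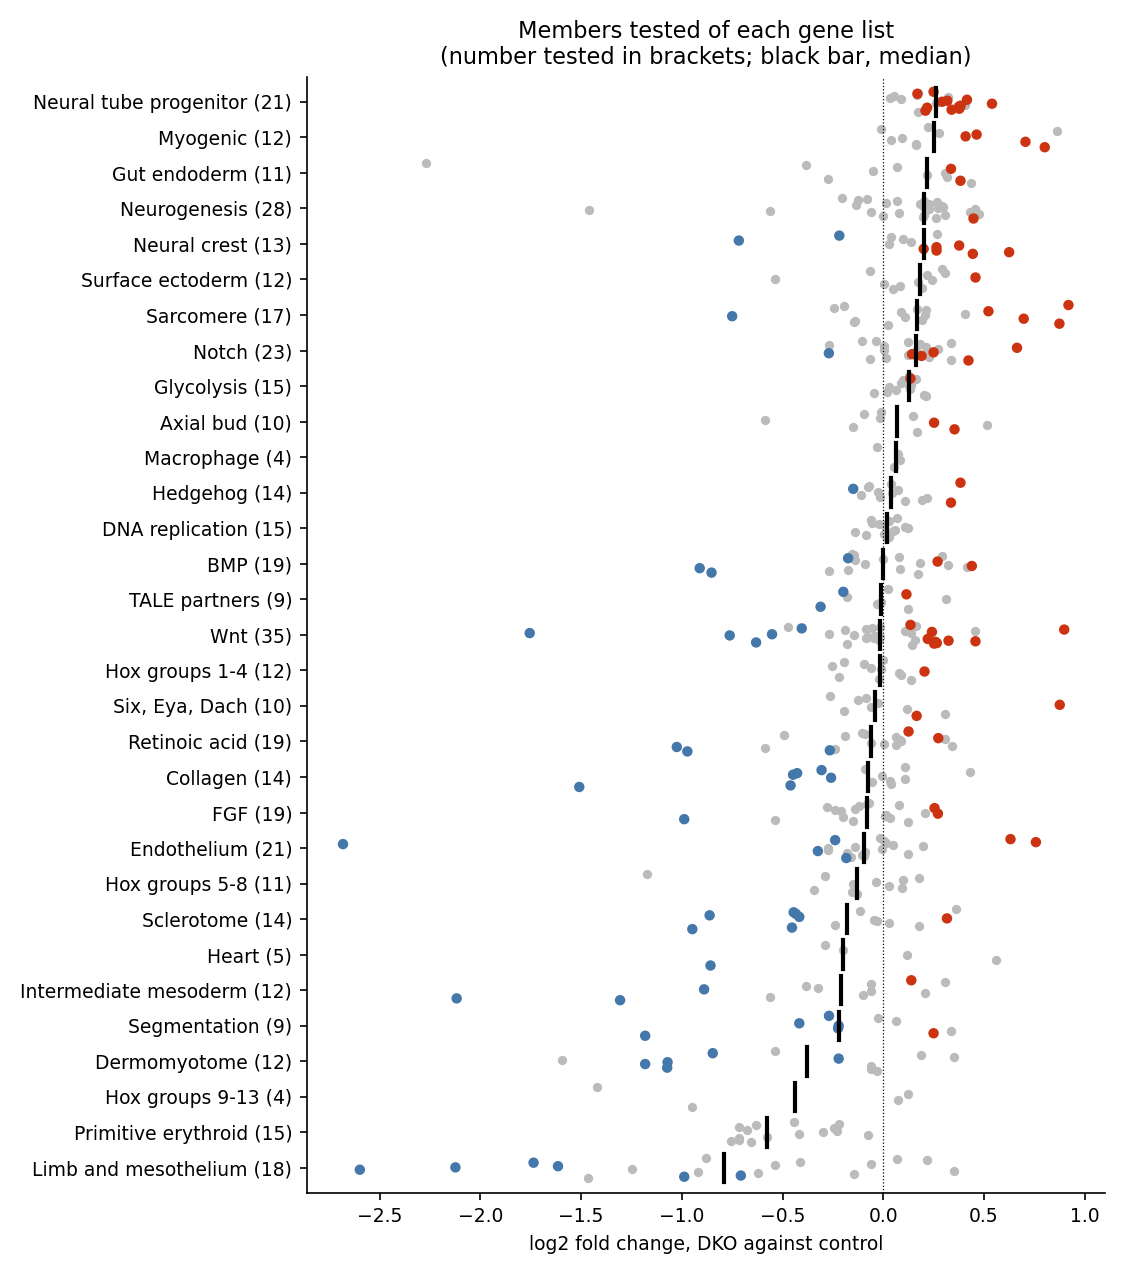
Log2 fold change (x axis, DKO against control) of every tested member of 31 gene lists (rows, ordered by median). Coloured points have an unadjusted p below 0.05 (red above, blue below the controls), grey points do not, and the black bar is the median, from −0.79 for limb and mesothelium genes to 0.26 for neural tube progenitors.

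Sclerotome genes lay mostly below the controls. Of 14 tested, 0 were called, 10 lay below and 4 above, and the median was −0.18. An unadjusted p below 0.05 was reached by 6 below, against 6.61% of all genes, and by 1 above. The summed level was 551 to 618 CPM in controls and 394 to 500 CPM in DKO, without overlap. Meox1, Twist1 and Pax1, chosen below for lack of overlap, averaged 185, 114 and 54.6 CPM in controls and made up a large part of it. The sum without them was not computed. Sox9 and Foxc1, named after their values were seen, had log2 fold changes of −0.05 and 0.03 (adjusted p = 0.851 and 0.921).

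Pax1, which marks the ventral sclerotome that forms vertebral bodies, was at 54.9, 59.7, 45.2, 53.6 and 59.5 CPM in controls and at 15.7, 40.3, 25.8 and 32.3 CPM in DKO. DKO 1 was lowest and DKO 2 highest among the knockouts, and the log2 fold change was −0.95 (SE 0.213, adjusted p = 0.12). Meox1, required for somite derivatives of the vertebral column, was at 160, 197, 180, 189 and 198 CPM in controls and at 111, 156, 144 and 143 CPM in DKO (−0.42, SE 0.095, adjusted p = 0.123). Twist1, a factor of mesenchyme, averaged 114 ± 12.1 and 84.2 ± 11.7 CPM (−0.43, adjusted p = 0.123).

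Pax1, Meox1 and Twist1 were each lowest in DKO 1 and highest among the knockouts in DKO 2, and none of the 3 overlapped the controls. Foxc2, also expressed in sclerotome, averaged 35.1 ± 5.56 and 34.5 ± 8.32 CPM (−0.03, adjusted p = 0.96). Uncx, a gene of the caudal sclerotome compartment and named after its values were seen, averaged 13 ± 2.12 and 16.2 ± 2.09 CPM (0.32, adjusted p = 0.337).

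Dermomyotome genes behaved alike in direction but not in every member. Of 12 tested, 0 were called, 10 lay below and 2 above the controls, and the median was −0.38. There were 5 with an unadjusted p below 0.05, all of them below, against 6.61% of all genes. The median was −0.19 without DKO replicate 1 and −0.14 with a filter at a mean of 50 counts. Pdgfra, a growth factor receptor of somite mesenchyme, was at 121, 125, 165, 103 and 114 CPM in controls and at 53.8, 79.8, 69.1 and 76.7 CPM in DKO (−0.85, SE 0.142, adjusted p = 0.0522). Sim1, of the lateral dermomyotome, was at 9.13, 10.9, 9.52, 8.55 and 9.72 CPM in controls and at 2.76, 4.97, 4 and 6.5 CPM in DKO (−1.07, SE 0.208, adjusted p = 0.0881). Dmrt2, needed for dermomyotome organisation, was at 25.9, 30.6, 33.8, 33.4 and 38.4 CPM in controls and at 6.94, 25.7, 10.5 and 14.4 CPM in DKO (−1.18, SE 0.302, adjusted p = 0.16).

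None of these 3 overlapped, although for Dmrt2 DKO 2 lay close under control 1. The summed level of the list, 303 to 388 CPM in controls and 218 to 281 CPM in DKO, depended on Pdgfra. Without Pdgfra, left out after the values were seen, it was 189 to 223 CPM and 164 to 201 CPM, and DKO 2 lay within the control range. The general dermomyotome markers Pax3 and Pax7 gave no such difference: they averaged 62.1 ± 3.53 and 15.4 ± 3.09 CPM in controls and 61 ± 3.76 and 14.7 ± 3.24 CPM in DKO (−0.03 and −0.06, adjusted p = 0.868 and 0.923). Lbx1, a gene of migrating limb muscle precursors that was named after its values were seen, was at 6.02 to 9.24 CPM in controls and at 1.18, 8.13, 1.22 and 3.75 CPM in DKO, with DKO 2 inside the control range (−1.07, adjusted p = 0.377).

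Of 9 segmentation genes tested, 0 were called, 3 lay above and 6 below, and the median was −0.22 (−0.09 without control replicate 2, −0.12 with a filter at a mean of 50 counts). Ripply1, which closes the segmentation programme at the somite border, averaged 0.908 ± 0.283 and 0.4 ± 0.0505 CPM (−1.18, adjusted p = 0.164), and Dact1, a Wnt pathway modulator of somites, averaged 40.1 ± 2.71 and 33.3 ± 3.32 CPM (−0.27, adjusted p = 0.185). Both were without overlap. Meox1 and Lfng are also members of this list.

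Several collagen genes lay below the controls. Of 14 collagen genes tested, 0 were called, and 9 lay below and 5 above. There were 6 with an unadjusted p below 0.05, all below, against 6.61% of all genes. The median of −0.07 became 0.03 without control replicate 3. Col1a1, of bone, skin and mesenchyme, was at 82.5, 107, 136, 43.4 and 51 CPM in controls and at 26.4, 35.2, 24.9 and 31.6 CPM in DKO (−1.51, SE 0.303, adjusted p = 0.0881). Col1a2, its partner chain, was at 188, 204, 231, 158 and 175 CPM in controls and at 140, 143, 128 and 143 CPM in DKO (−0.46, SE 0.096, adjusted p = 0.0976). Col9a1, a cartilage collagen, averaged 41.9 ± 2.67 and 31.2 ± 2.63 CPM (−0.43, adjusted p = 0.0522).

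The controls themselves ranged widely for Col1a1, with control 3 highest and controls 4 and 5 lowest, and all 3 genes were without overlap. Col2a1, the main collagen of cartilage and notochord, averaged 241 ± 29.1 and 247 ± 8.3 CPM (0.04, adjusted p = 0.884).

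Aldh1a2 and Cyp26b1, which make and remove retinoic acid, had the smallest p-values of that pathway. Aldh1a2, which synthesises retinoic acid in somites and mesothelium, was at 145, 184, 104, 133 and 113 CPM in controls and at 52.3, 67, 82.1 and 76.2 CPM in DKO. Every DKO library lay below every control (−0.97, SE 0.17, adjusted p = 0.0641). Cyp26b1, which degrades retinoic acid, was at 13.4, 12, 12.6, 18.9 and 11.4 CPM in controls and at 4.72, 7.3, 7.37 and 7.61 CPM in DKO (−1.02, SE 0.182, adjusted p = 0.0659), also without overlap.

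Of the 19 retinoic acid genes tested, 0 were called, and 9 lay above and 10 below the controls. The median was −0.06 (−0.09 to 0.01 when 1 library was left out). Those with an unadjusted p below 0.05 were 2 above and 3 below, against 6.41% and 6.61% of all genes. Rarb, a receptor gene that is itself induced by retinoic acid, averaged 28.9 ± 2.29 and 29 ± 1.02 CPM (0.00, SE 0.0677, adjusted p = 0.989). The binding protein Crabp1 averaged 555 ± 49.6 and 671 ± 80.8 CPM (0.27, adjusted p = 0.227), and Cyp26a1 averaged 3.46 ± 1.34 and 2.29 ± 0.891 CPM (−0.58, adjusted p = 0.472). The other enzymes tested were Rdh10 (−0.26), Dhrs3 (−0.24) and Cyp26c1 (0.34), with adjusted p-values of 0.238, 0.608 and 0.827. Rarb, Crabp1 and these 4 enzymes were named outside the rule, and their groups overlapped.

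The combined list of limb and mesothelium genes named 3 genes by its rule, which required groups without overlap. Bnc1, a zinc finger gene of mesothelium and keratinocytes, was at 6.22, 5.08, 9.29, 4.56 and 6.27 CPM in controls and at 1.21, 2.12, 1.91 and 2.29 CPM in DKO (−1.74, SE 0.25, adjusted p = 0.052). Wt1, which marks mesothelium and nephrogenic tissue, was at 3.48, 4.1, 7.88, 3.18 and 4.24 CPM in controls and at 0.288, 1.6, 0.928 and 1.43 CPM in DKO (−2.12, SE 0.436, adjusted p = 0.0915). Upk3b, another mesothelial gene, was at 4.74, 4.96, 5.7, 2.6 and 2.09 CPM in controls and at 0.979, 0.932, 1.39 and 1.91 CPM in DKO (−1.62, SE 0.339, adjusted p = 0.0995). None passed the threshold in the main fit, and control 3 was the highest library for each. Of 19 alternatives, Bnc1 passed in 10, Wt1 in 4 and Upk3b in 2. Other members linked to the coelomic lining, named after their values were seen, were Osr1 (−0.06, adjusted p = 0.971), Gata4 (0.07, adjusted p = 0.983) and Tcf21 (−0.54, adjusted p = 0.661), all overlapping.

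Of the 18 limb and mesothelium genes tested, 0 were called, 15 lay below and 3 above, and the median was −0.79. There were 6 with an unadjusted p below 0.05, all below, against 6.61% of all genes. Control 3 stood apart, with a summed level of 276 CPM against 108 to 125 CPM in the other controls and 88.3 to 114 CPM in DKO. Without it the median was −0.25, and Bnc1, Wt1 and Upk3b gave log2 fold changes of −1.56, −1.85 and −1.47. Tbx5, a forelimb field gene named after its values were seen, was at 12.3 CPM in control 3 and at 1.04 to 2.73 CPM in the other controls, against 0.812 to 1.98 CPM in DKO. The part of tissue dissected at the forelimb level in the list's difference was not tested.

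In the intermediate mesoderm list, 12 genes were tested, 0 were called, and 9 lay below the controls, with a median of −0.21. Pax2, of the nephric lineage, averaged 2.22 ± 0.727 and 0.889 ± 0.245 CPM without overlap (−1.31, adjusted p = 0.123). The median was −0.02 without control replicate 2 and −0.05 without control replicate 3.

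**Figure D4:**
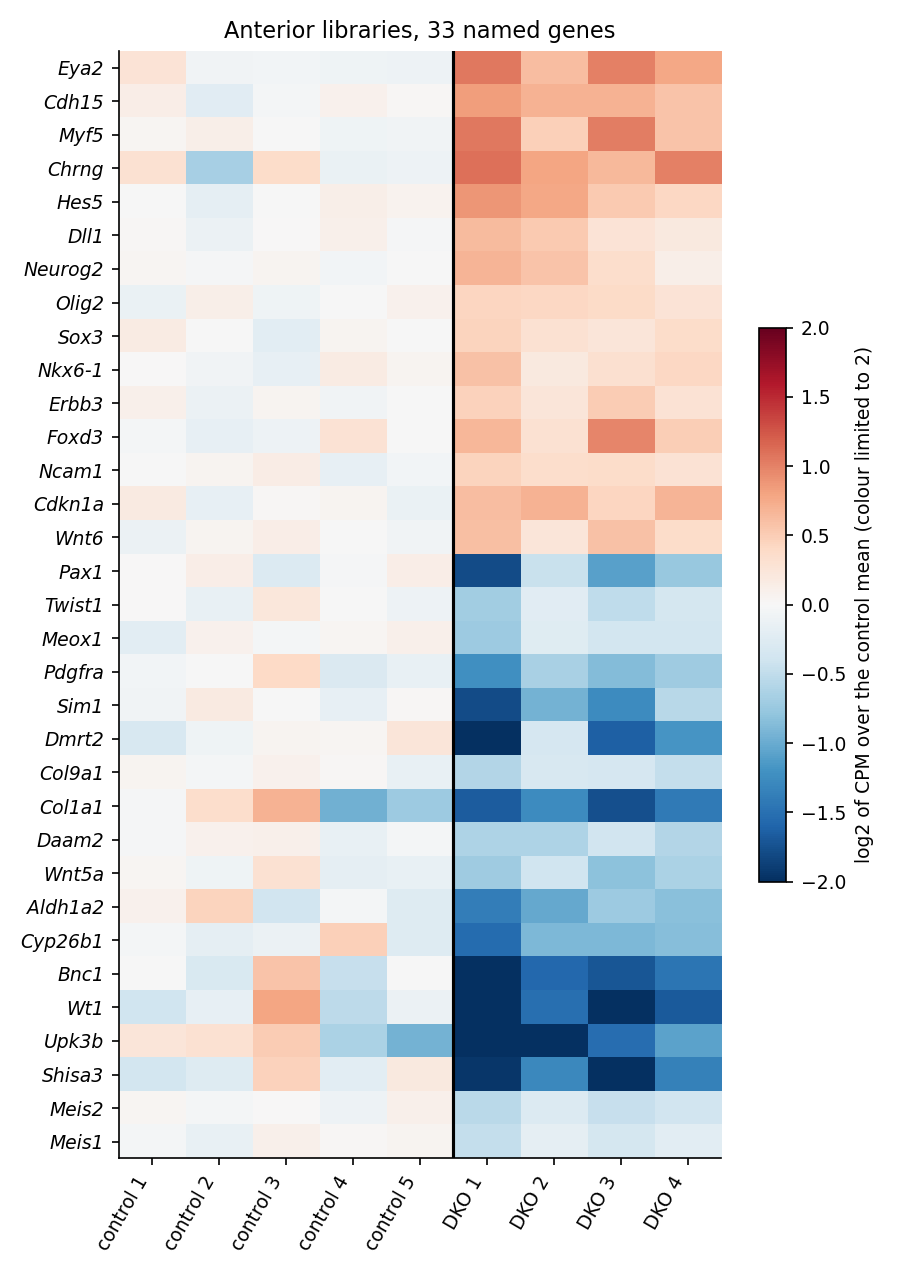
Level of 33 genes named in the text (rows) in the 9 anterior libraries (columns), as log2 of CPM over the mean of the 5 controls, with colours limited to 2 in either direction. All 33 genes were chosen from those whose groups do not overlap, so the same side in all 4 DKO libraries was set by the choice. The muscle, Notch and neural genes drawn are above the control mean. The sclerotome, dermomyotome, collagen, retinoic acid and mesothelial genes drawn are below it. Snai2 of the neural crest list (−0.72) and Myl7 of the contractile list (−0.75), also without overlap, lay below the controls and are not drawn.

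Daam2, a formin that binds Dishevelled in the Wnt pathway, was at 33.2, 35.6, 35.9, 30.4 and 32.8 CPM in controls and at 21.8, 21.9, 25.8 and 22.3 CPM in DKO. It fell by 0.55 on the log2 scale (SE 0.0741, adjusted p = 0.038), and no library overlapped. The call was lost in 6 of the 9 fits that left out 1 library, those without DKO replicate 1 or 4 or control replicate 1, 2, 3 or 5 (adjusted p 0.0737 to 0.186), and in the fit with all 18 libraries (0.366).

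Of the 35 Wnt genes tested, 1 (Daam2) was called, 16 lay above and 19 below, and the median of −0.01 became 0.09 without control replicate 3. An unadjusted p below 0.05 was reached by 9 above and 5 below, against 6.41% and 6.61% of all genes. The ligand Wnt5a, which acts mostly outside the beta-catenin branch, was at 50, 45.8, 60, 42.6 and 43.7 CPM in controls and at 29.5, 36.7, 27.6 and 31.1 CPM in DKO (−0.63, SE 0.11, adjusted p = 0.0641). Wnt6, a ligand of the surface ectoderm that overlies the somites, was at 19.9, 22.5, 23.7, 21.7 and 20.8 CPM in controls and at 32.8, 25.7, 32.6 and 28.2 CPM in DKO (0.46, SE 0.0884, adjusted p = 0.0881). Both ligands were without overlap, in opposite directions.

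BMP, FGF and Hedgehog lists had medians near 0. The BMP list had 19 genes tested, 9 above and 10 below, with a median of 0.00 (2 above and 3 below with an unadjusted p below 0.05). Gdf6, a BMP family ligand, averaged 2.02 ± 0.499 and 1.06 ± 0.177 CPM without overlap (−0.91, adjusted p = 0.168). The FGF list had 19 tested, 8 above and 11 below, with a median of −0.08 (−0.02 without control replicate 3), and the Hedgehog list had 14 tested, 8 above and 6 below, with a median of 0.04 (0.01 to 0.06 when 1 library was left out). In each of these 2 lists 2 genes above and 1 below had an unadjusted p below 0.05. Over all genes the shares were 6.41% above and 6.61% below. In the Hedgehog list Shh, the ligand of notochord and floor plate, averaged 29.7 ± 2.28 and 37.5 ± 3.56 CPM (0.34, adjusted p = 0.129), and Foxa2, a factor of the same cells, averaged 10.8 ± 0.707 and 14.1 ± 2.1 CPM (0.38, adjusted p = 0.187). Both were named after their values were seen and overlapped between groups. Of these 3 lists 0 genes were called.

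Of the Hox genes, the partners with which Meis proteins set position along the axis, 0 were called, and those of groups 1 to 4 differed little in level. Of 12 genes of paralogue groups 1 to 4, all tested, 0 were called, 5 lay above and 7 below, and the median was −0.02, between −0.25 for Hoxa4 and 0.20 for Hoxa3. Hoxa2, for example, averaged 31 ± 5.57 and 32.9 ± 1.7 CPM. Of 11 genes of groups 5 to 8, 0 were called, 4 lay above and 7 below, and the median was −0.13, which became 0.04 without control replicate 3. They ranged from −1.17 for Hoxd8 to 0.18 for Hoxb8. Hoxa5, which specifies cervical and upper thoracic vertebrae, averaged 30.9 ± 1.7 and 28.2 ± 5.63 CPM (−0.13, adjusted p = 0.68).

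Only 4 of 16 genes of groups 9 to 13 had enough counts to be tested, and 5 were at 0 in every anterior library. The 4 tested ranged from −1.42 for Hoxa11 to 0.12 for Hoxc9, and their median of −0.44 became 0.15 without control replicate 3. Hoxd8, named after its values were seen, was at 14.9 CPM in control 3 and at 1.44 to 2.54 CPM in the other controls, against 1.3 to 2.69 CPM in DKO.

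Other tissues that the dissected piece could hold were read from their marker lists. Primitive erythroid genes, 15 tested, all lay below the controls with a median of −0.58 (−0.35 without control replicate 5), but 0 had an unadjusted p below 0.05. Their sum varied from 1244 to 5982 CPM among controls, with control 5 highest and control 2 lowest, and all 4 DKO libraries (1567 to 2646 CPM) lay within that range. Surface ectoderm genes, 12 tested, lay above in 10 with a median of 0.18, which was 0.02 without DKO replicate 3, and 0 were called. Gut endoderm genes, 11 tested, lay above in 7 with a median of 0.22 (0.11 without DKO replicate 3), and 0 were called. Of 10 heart genes, 5 were tested, with sums over the whole list of 11.5 to 16.9 CPM in controls and 10.8 to 12.2 CPM in DKO.

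**Figure D5:**
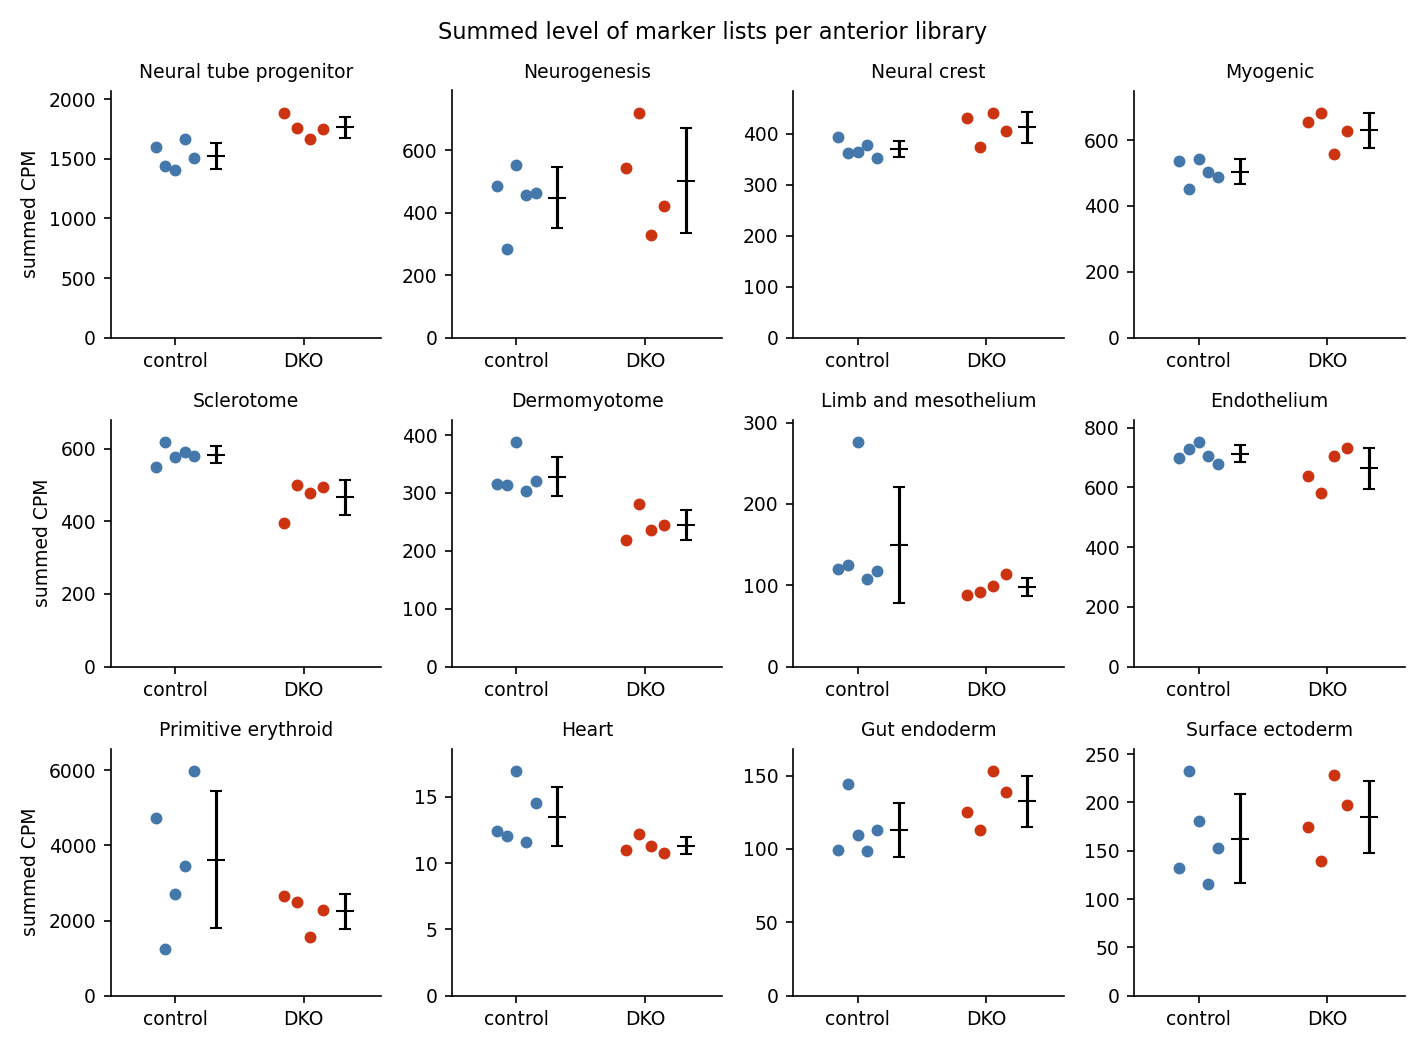
Summed CPM (y axis, from 0) of 12 marker lists in the 5 control (blue) and 4 DKO (red) anterior libraries, with the mean and SD beside each group. Sclerotome (551 to 618 against 394 to 500 CPM) and dermomyotome genes (303 to 388 against 218 to 281 CPM) do not overlap. Myogenic genes (451 to 542 against 558 to 683 CPM) do not overlap either. Meox1, Twist1 and Pax1 make up a large part of the sclerotome sum. The dermomyotome sum overlaps once Pdgfra is left out (189 to 223 against 164 to 201 CPM). Erythroid genes range from 1244 to 5982 CPM among controls.

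Housekeeping lists moved little. Of 15 glycolysis genes, 14 lay above the controls, with a median of 0.13 (0.08 without control replicate 4), 1 with an unadjusted p below 0.05 and 0 called. Of 15 genes of DNA replication, 10 lay above and 5 below, with a median of 0.02 and 0 with an unadjusted p below 0.05.

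The other named genes with small p-values outside the threshold were of mixed function. Cdkn1a (p21, a cell cycle inhibitor induced by p53) was at 19.6, 15.5, 17.6, 17.9 and 15.9 CPM in controls and at 26.7, 28.1, 23.2 and 27.8 CPM in DKO (0.61, SE 0.0895, adjusted p = 0.052). Ncam1, a cell adhesion molecule of neural and muscle cells, averaged 57.6 ± 4.73 and 74 ± 3.32 CPM (0.36, adjusted p = 0.0522). The adaptor Gab2, the microtubule protein gene Mtcl1 and the kinase gene Alpk2 had log2 fold changes of 0.47, 0.27 and 0.77, with adjusted p-values of 0.0641, 0.0641 and 0.0661.

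On the lower side, Shisa3, a regulator of Wnt and FGF receptors, was at 11.7, 12.7, 20.8, 13 and 17.2 CPM in controls and at 3.92, 6.16, 2.38 and 5.87 CPM in DKO (−1.70, SE 0.264, adjusted p = 0.0522). The elongation complex gene Aff2 (−1.05), the mechanosensitive channel gene Piezo2 (−0.53), the sphingosine phosphate receptor gene S1pr3 (−0.60), the natriuretic peptide receptor gene Npr1 (−0.65) and Npat (−0.29), which activates histone genes, all had an adjusted p of 0.0522. Each of these 11 genes was without overlap between groups, which the naming rule required.

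The interaction of region and genotype asked whether the anterior difference departed from the posterior one in the same embryos. Of 16428 genes, 0 passed the threshold in edgeR, and 567 had an unadjusted p below 0.05 (3.45%). DESeq2 gave 9. With the embryo as a block the count was 0, with 860 genes at an unadjusted p below 0.05.

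Posterior values of the genes above are set beside the anterior ones. The smallest interaction p belonged to Bnc1, which averaged 6.25 and 1.87 CPM in anterior control and DKO libraries and 9.32 and 8.67 CPM in posterior ones on the scale shared by all 18 libraries, a difference between regions of −1.63 (SE 0.288, adjusted p = 0.373, edgeR, and 0.361 with the embryo as a block). Eya2 had log2 fold changes of 0.88 anteriorly and 0.21 posteriorly (interaction 0.66, SE 0.195, adjusted p = 0.999), and Lyve1 had −2.68 and −0.39 (−2.29, SE 0.614, adjusted p = 0.991). The transcript 4930481B07Rik fell in both regions, by 2.73 and 2.36 on the log2 scale. Hes5, Daam2 and Pax1 had anterior values of 0.66, −0.55 and −0.95 and posterior values of 0.69, −0.59 and −0.92, of which the anterior Hes5 and Daam2 values passed the threshold. Aldh1a2 had −0.97 and −0.27, and Wnt5a had −0.63 and 0.12, and for neither did the difference between regions pass the adjusted threshold.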

How the data were processed

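RNA was read as poly(A) libraries (single end, 61 bp), per the labels' protocols. The deposited table holds expected counts per gene, which the authors estimated with RSEM on GRCm38, with CASAVA and cutadapt also named, per the submitters' processing notes. Versions, aligner and strand setting are not given in the sources used here. Of 53465 gene identifiers, 53360 were found in GENCODE M21.

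The counts, rounded to whole numbers, were tested with edgeR 4.0.16 under R 4.3.3 (filterByExpr with minimum count 10 and total 15, TMM scaling, glmQLFit, glmQLFTest, Benjamini-Hochberg adjustment over all genes tested, threshold 0.05). The main fit held the 9 anterior libraries without covariates. Alternatives used other size factors, DESeq2 1.42.0, voom in limma 3.58.1, other filters, sex, somite number, all 18 libraries and leaving out each library. The SE given for edgeR is the absolute log2 fold change divided by the square root of the test's F statistic. It is therefore not separate from the p-value. No interval beyond the SE was computed. The floor was 3 counts, which covers counting error only since the reads carry no molecular identifiers.

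Named were Meis1, Meis2, every gene past the threshold, in each direction the 10 protein-coding genes of smallest p whose groups did not overlap and whose mean count was 50 or more, and up to 3 members of each of 31 lists (484 genes) with an unadjusted p below 0.05 and no overlap; some genes covered by this rule are not reported here, and others are marker checks, or stand as examples of their list chosen after their values were seen. The members, lists and rules were chosen with earlier results of these data known. Lists carry no test.

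The anterior and posterior library of an embryo were matched by their labels (genotype, somite number and sex). All 9 pairs deviated together from their group means (correlation over 16428 genes 0.303 to 0.629, log2 of CPM plus 0.5), against −0.347 to 0.0977 between different embryos of a genotype, and the interaction, fitted without a block, was repeated with the embryo as a block. Tested on simulated data of the anterior design, edgeR made 0 calls with no gene changed, and recovered 43% of 200 genes changed by 0.5 and 76.5% of those changed by 1 on the log2 scale.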

Additional observations from a re-analysis of the deposited data

Results flagged for a closer look

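Single libraries stood apart from the rest of their group in 11 of 170 checks with Dixon's test, where chance flags about 1 group in 20. The number of flags is thus near the chance rate. The checks are also not independent, since Wt1 is part of the limb and mesothelium sum. Control replicate 3, with 24 somites, was high for 4 values: the summed limb and mesothelium genes (276 CPM against 108 to 125 in the other controls), the summed dermomyotome genes (388 against 303 to 321), the summed Hox genes of groups 5 to 8 (317 against 230 to 251) and Wt1 (7.88 against 3.18 to 4.24 CPM). DKO replicate 1 was low for Cyp26b1 (4.72 against 7.3 to 7.61 CPM) and for Aff2 (1.9 against 2.59 to 2.73 CPM).

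The other flags fell on different libraries. Eya2 was high in control replicate 1 (19.5 against 15 to 15.5 CPM), Daam2 in DKO replicate 3 (25.8 against 21.8 to 22.3 CPM), and Cyp26b1 in control replicate 4 (18.9 against 11.4 to 13.4 CPM). The summed axial bud genes were high in control replicate 2 (755 against 581 to 626 CPM), an embryo with 20 somites, and the summed BMP genes were low in DKO replicate 4 (535 against 584 to 592 CPM).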

How the results depend on the processing

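The count of genes called was 6 in the main analysis and 6 with RLE factors, 8 with upper quartile factors and 9 with a filter at a mean of 50 counts. It was 296 with DESeq2, 29 with limma-voom, 83 without a filter on low counts, 71 with the sex label, 84 with the somite number and 27 with sex read from Y-linked genes (added after seeing the data), all of these holding the 6 genes, and 19 with all 18 libraries, which shared 4; the cause was not tested. Without 1 library it ranged from 1 to 57. The interaction gave 0 genes, 0 with the embryo as a replicate block, 9 with DESeq2, and 0 to 1 without 1 embryo (1 without DKO replicate 2). No direction reversed in any called gene: over the 6, 85 alternatives kept the call and 28 lost it. Of the alternatives of the 48 other genes named by the rule, 177 brought an adjusted p under the threshold and 729 did not. List medians moved by more than the SD between libraries of a group (of the list's mean log2 level) in 5 alternatives and by less in 584. Leaving out 1 library turned the sign of the median in 11 of 31 lists (Hox groups 5 to 8 and 9 to 13, retinoic acid, TALE, Wnt, contractile, neuronal, macrophage, BMP, collagen and DNA replication) and moved that of limb and mesothelium genes from −0.79 to −0.25. Genes under about 1 CPM, such as Lyve1, rest on few counts.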

Other observations

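Genes named here were chosen after their values were seen. No list of imprinted genes was tested. Peg3, Usp29 and Zim1 are imprinted genes that neighbour each other on chromosome 7. Peg3, a zinc finger gene, was at 593, 669, 776, 503 and 652 CPM in controls and at 292, 390, 393 and 457 CPM in DKO (−0.74, SE 0.137, adjusted p = 0.0724 in edgeR). Usp29 averaged 22.1 ± 3.44 and 13.6 ± 2.37 CPM (−0.70, adjusted p = 0.0915) and Zim1, which is expressed from the maternal copy, averaged 28 ± 7.6 and 12.3 ± 3.89 CPM (−1.18, adjusted p = 0.0881). None of the 3 overlapped between groups, and none passed the threshold. Rian, a maternally expressed non-coding RNA of another imprinted cluster, averaged 404 ± 30.1 and 310 ± 18.8 CPM (−0.38, adjusted p = 0.0522).

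Pmaip1 (Noxa, a p53 target that promotes cell death) was at 2, 1.48, 1.56, 1.79 and 1.24 CPM in controls and at 4.32, 5.43, 2.67 and 2.64 CPM in DKO (1.22, SE 0.251, adjusted p = 0.0915 in edgeR), without overlap, like Cdkn1a. Foxl2 averaged 0.876 ± 0.282 and 2.81 ± 0.981 CPM (1.71, adjusted p = 0.0881). The adult-type fast myosin gene Myh1 was at 0.173 CPM or less in controls and at 0.569 to 1.01 CPM in DKO, where 3 counts are 0.0865 to 0.237 CPM (adjusted p = 0.0522). Tcf12, a partner of bHLH factors in muscle and neurons, was at 340 to 356 CPM in controls and at 278 to 306 CPM in DKO (−0.26, SE 0.0434, adjusted p = 0.0563).

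Sums of neuronal and contractile genes were lowest in the embryo with 20 somites of each group. The neuronal sum was 284, 458, 486, 462 and 551 CPM in controls with 20, 21, 23, 23 and 24 somites. In DKO embryos with 20, 22, 23 and 24 somites it was 330, 542, 421 and 719 CPM, so the embryo with 22 lay above that with 23. The contractile sum was 166, 191, 276, 201 and 246 CPM in those controls, where an embryo with 23 somites was highest, and 147, 226, 232 and 364 CPM in DKO.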
